A study of Mus musculus with 8 samples.

Results

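The Rab genes of mouse tumour neutrophils are described here, as they were measured in an ICAM1high and an ICAM1low fraction of the cells. Members were all protein-coding rows of the deposited count table whose gene name begins with Rab and a digit, which gave 69 of 54532 genes, and 57 of them passed a filter on low counts. They comprise 59 Rab GTPases and 10 partner proteins named after Rabs, among them Rab3il1. The neutrophils came from untreated tumours of 2208L cells, a mouse mammary tumour line, that were grown in mammary fat pads of Balb/c mice and taken at a diameter of 1 cm. After dissociation, flow cytometry separated cells with high and with low surface ICAM1 (CD54), a ligand of beta2 integrins. Each fraction has 4 libraries, called biological replicates in the labels, made from 100 ng of total RNA; both fractions share the tumour line, the mouse strain and the absence of treatment, and the sources used here do not give the age of the mice or say whether animals were pooled. Nothing says that the libraries came from separate mice, so p-values measure the spread between these libraries.

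Rab proteins are small GTPases that mark the membranes of a cell. In the GTP-bound state a Rab recruits effectors that move, tether or fuse vesicles, exchange factors (GEFs) switch it on, and GTPase activating proteins (GAPs) switch it off. In neutrophils, Rab27a drives the release of preformed granules, Rab5 and Rab7 act in sequence on maturing endosomes and phagosomes, and Rab11 with its interacting proteins returns receptors and integrins to the surface.

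The libraries held 10328575 to 22751975 counts. Levels are given as CPM, which is counts per 1000000 counts of the TMM-scaled library size, where TMM is a scaling that assumes that most genes do not change. Summed over 10 macrophage markers, the level was 9866 to 16610.3 CPM in ICAM1high and 1178 to 1822 CPM in ICAM1low, with 9 of the 10 higher, 0 lower and 0 markers without counts; summed over 10 neutrophil markers it was 8228 to 11199.8 CPM and 37250.8 to 75250.8 CPM, with 10 of 10 lower, or 9 with library totals. Neutrophil and macrophage markers were thus present in both fractions. The macrophage sum exceeded the neutrophil sum in ICAM1high replicates 1 to 3, but not in ICAM1high replicate 4 or in any ICAM1low library. The part of either cell type in the results that follow was not tested. In these bulk libraries fewer cells of a type and less RNA per cell cannot be told apart. Summed markers of other cells were low by comparison, at 7.39 to 14.7 against 3.85 to 9.90 CPM for dendritic cells, 23.3 to 38.9 against 14.2 to 22.7 CPM for lymphocytes, 70.1 to 125 against 49.3 to 70.7 CPM for stroma, and 119.7 to 174 against 77.9 to 107 CPM for mast cells, basophils and eosinophils, where Fcer1a was at 0 in all libraries and, of 3 markers tested, 2 were lower and 1 higher with a median log2 fold change of -0.99. Of the libraries, 2 stood apart: genes shorter than 1000 bases took 5.79% of counts in ICAM1high replicate 1, against 3.41 to 3.57% in the other ICAM1high libraries, and 11.1% in ICAM1low replicate 4, against 4.61 to 6.32% in the other ICAM1low libraries.

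Rab transcripts were more often lower than higher in ICAM1high on the TMM scale. Of the 57 members tested, 28 were lower, 8 were higher and 21 did not pass an adjusted p of 0.05 (edgeR quasi-likelihood test, Benjamini-Hochberg over 14051 genes). Over all genes tested, 19.6% were lower and 22.6% were higher. The median log2 fold change, ICAM1high over ICAM1low, was -0.44 among members and 0.08 among all genes tested. When libraries were scaled by their total counts alone, all log2 fold changes shifted upward, by 0.68 at the median of all genes, and then 7 members were lower and 20 higher, against 5.97% lower and 48.5% higher of all genes. The members that were lower under both scalings were Rab44, Rab20, Rab7, Rab25, Rab27a, Rab31 and Rab8a. The 8 that were higher under both were Rab3il1, Rab39, Rab7b, Rab11fip2, Rab12, Rab11fip5, Rab18 and Rab10. Rab39 was tested only because of its ICAM1high libraries, and Rab17, among the 28, only because of its ICAM1low libraries, so the filter favoured a difference in both. A stricter filter of at least 50 counts in 4 libraries leaves both out and gave 27 lower and 7 higher of 48 members, against 23.8% and 26.2% of all genes.

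**Figure D1:**
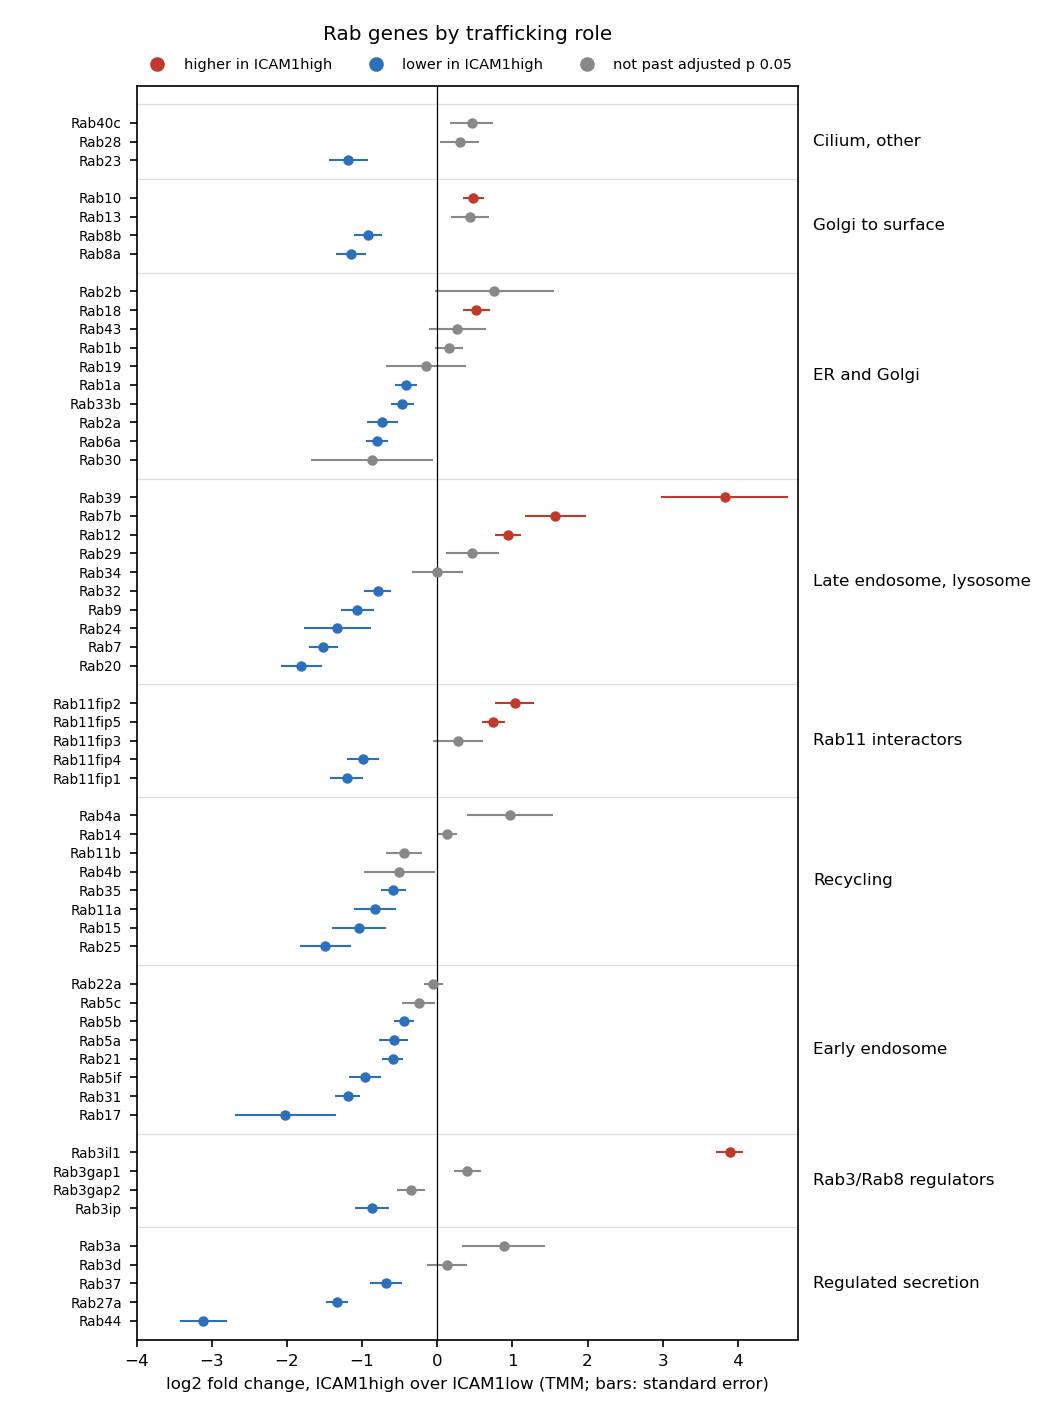
Log2 fold change of ICAM1high over ICAM1low (x axis, TMM scaling, bars are standard errors) for the 57 tested members (y axis), grouped by trafficking role and coloured by whether the adjusted p was under 0.05. Rab3il1 lies at 3.89 and Rab44 at -3.11; with library totals the median of all genes moves up by 0.68, and Rab21, Rab5b, Rab5a, Rab33b, Rab1a, Rab35 and Rab37 turn from lower to at or above 0.

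The count did not rest on the 2 libraries that stood apart. Without ICAM1high replicate 1 and ICAM1low replicate 4, 29 members were lower and 10 higher of 56 tested, against 24.5% and 25.5% of all genes. Without ICAM1high replicate 3 18 members were lower and 6 higher of 57, against 15.4% and 16.8% of all genes, so that both the members' and the all-gene counts were smaller in that fit. The numbers in the library names fall into 2 runs, 1 with replicates 1 and 2 and 1 with replicates 3 and 4; the labels do not say what the numbers stand for. Within replicates 1 and 2 alone, 8 members were lower and 2 higher of 57, against 9.89% and 11.9% of all genes; within replicates 3 and 4 alone, 20 were lower and 4 higher of 59, against 11.0% and 11.4%. Fewer members were called within each run, where each fraction has only 2 libraries. In CPM, all 4 ICAM1high libraries lay below all 4 ICAM1low libraries for 23 of the 57 members and above them for 8, whereas 18.0% of all genes were separated downward and 23.4% upward. The 69 genes together held 3930 to 4520 CPM in ICAM1high and 7016 to 8728 CPM in ICAM1low. As a plain share of all counts they held 5257 to 5370 CPM of the uncorrected totals in ICAM1high and 5856 to 6363 in ICAM1low, so the summed level was lower in ICAM1high under either scaling, by a smaller margin in the second.

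**Figure D2:**
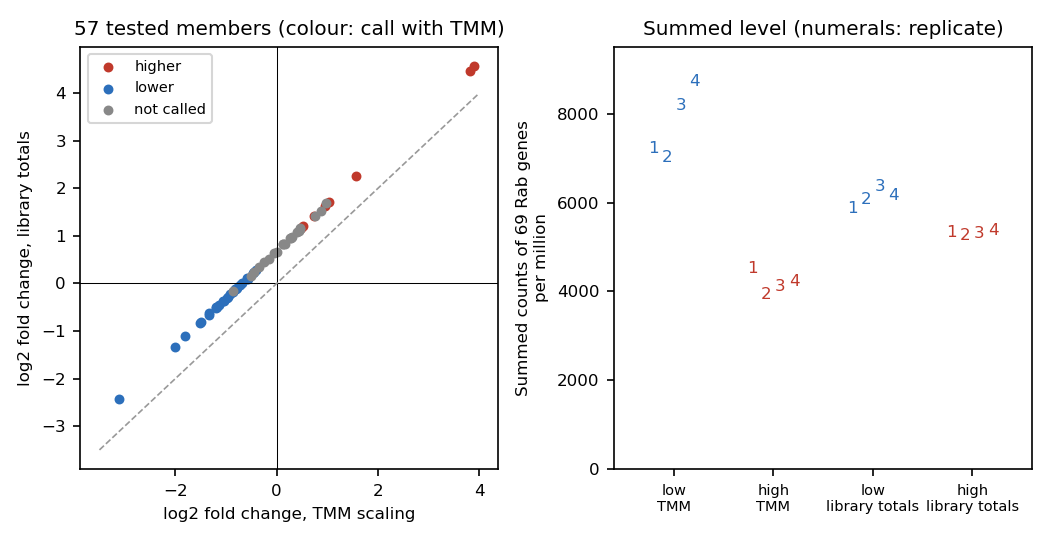
Left, log2 fold changes of the 57 tested members with TMM scaling (x axis) against library totals (y axis), the dashed line marking equal values; right, summed CPM of the 69 members in each library (y axis, numerals are replicates) under each scaling. Points lie above the line by a nearly constant amount, so that 7 of the 28 members lower on the TMM scale are at or above 0 with library totals, and the summed level of the ICAM1high libraries is below that of every ICAM1low library in both.

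Between genes, levels were compared per kilobase of the deposited gene length (RPKM, from the mean CPM). Rab20 and Rab7 led in ICAM1low, at 526 and 465 RPKM; their libraries ranged over 387 to 738 and 372 to 554 RPKM and overlapped, so their order is not settled. Rab8b, Rab5c and Rab32 came next, at 190.2, 154 and 107 RPKM, and each overlapped its neighbour. In ICAM1high the leading level was that of Rab7 at 163 RPKM, followed by Rab20 at 151, Rab5c at 129.7 and Rab8b at 100.4, and the libraries of these neighbours overlapped. By single libraries Rab5c or Rab8b stood above Rab20 in some of the ICAM1high libraries. Rab44 was the gene of rank 8 among the 57 in ICAM1low and rank 28 in ICAM1high, while Rab3il1 moved from rank 43 to rank 20.

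Promoter sequences are shown for Rab3il1, the member with the largest fitted increase, and for the granule Rab27a and the late endosomal Rab7 and Rab20, which were lower under both scalings. RefSeq promoters of build GRCm38.p6, which shares the coordinates of mm10, were found for 56 of the 69 members, with none for Rab44 or Rab7b. Each line gives the 250 bases before the start site nearest to the deposited 5′ end of the gene, 5′ to 3′ on the gene's strand. Letters are in lower case, with matches to any of 4 motifs in capitals. The windows are chr19:10001419-10001668, plus strand for Rab3il1; chr9:73044560-73044809, plus strand for Rab27a; chr6:88045271-88045520, minus strand for Rab7; and chr8:11478641-11478890, minus strand for Rab20.
Rab3il1: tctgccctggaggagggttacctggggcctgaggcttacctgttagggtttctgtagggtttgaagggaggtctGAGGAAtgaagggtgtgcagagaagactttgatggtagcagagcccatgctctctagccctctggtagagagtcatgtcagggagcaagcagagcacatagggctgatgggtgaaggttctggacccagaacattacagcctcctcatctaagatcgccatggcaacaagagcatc
Rab27a: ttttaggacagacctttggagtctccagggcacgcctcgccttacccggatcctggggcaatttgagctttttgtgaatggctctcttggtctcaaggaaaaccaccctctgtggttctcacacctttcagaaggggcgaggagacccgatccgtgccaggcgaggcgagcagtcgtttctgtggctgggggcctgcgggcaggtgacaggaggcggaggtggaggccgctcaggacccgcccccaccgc
Rab7: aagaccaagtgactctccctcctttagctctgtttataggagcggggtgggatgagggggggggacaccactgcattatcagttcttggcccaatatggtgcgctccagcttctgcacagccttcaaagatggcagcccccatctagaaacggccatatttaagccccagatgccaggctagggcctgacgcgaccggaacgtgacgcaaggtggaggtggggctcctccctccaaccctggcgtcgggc
Rab20: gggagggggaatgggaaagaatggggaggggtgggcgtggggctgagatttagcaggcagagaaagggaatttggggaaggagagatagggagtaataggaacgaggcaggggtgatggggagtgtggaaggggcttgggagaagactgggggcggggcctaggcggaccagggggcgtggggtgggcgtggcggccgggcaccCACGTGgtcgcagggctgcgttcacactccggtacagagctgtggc
The motifs, read on both strands, were CACGTG (the E-box core bound by lysosomal regulators such as TFEB), GAGGAA (a core of the myeloid factor PU.1), TTGCNNAA (a C/EBP core) and TGANTCA (AP-1), and overlaps between motifs were not examined. Rab20 held CACGTG with its first base 46 bases before the start, and Rab3il1 held GAGGAA with its first base 176 bases before the start. For Rab20 the RefSeq start lies within the deposited gene, so that its window covers the first bases of that gene and the CACGTG match falls among them. The windows of Rab27a and Rab7 held none of these letters. CACGTG was present in 5 of the 48 tested members with a promoter (10.4%) and in 6.0% of all 32851 promoters of the table. The 5 were Rab20, Rab21, Rab5a, Rab23 and Rab3gap2, the first 4 of them lower, where 23 of the 48 were lower. Of the members with GAGGAA, 5 were lower and 2 higher, and a link between motif and direction was not tested. GAGGAA was present in 9 of the 48 (18.8%) and in 23.3% of all, TTGCNNAA in 3 (6.2%) and in 9.6% of all, and TGANTCA in 1 (2.1%) and in 6.7% of all. Members were read at a single start each, and only tested members were counted. The 32851 promoters were not limited to tested genes and hold several starts for some genes, 5 of them for Rab3il1. The shares of members and of all promoters thus come from unlike sets. A match is a run of letters and no evidence of binding.

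Rab3il1 and the other regulators of Rab3 and Rab8 moved in different directions. Rab3il1 (ENSMUSG00000024663, mm10 chromosome 19, 10001669 to 10038380), also called GRAB, is an exchange factor for Rab3 and Rab8. It measured 87.6, 83.2, 85.2 and 69.3 CPM in ICAM1high replicates 1 to 4 and 6.75, 5.14, 5.52 and 4.56 CPM in ICAM1low replicates 1 to 4. The fractions did not overlap, and the lowest ICAM1high library held over 10 times the level of the highest ICAM1low library. The mean was 81.3 ± 8.22 against 5.49 ± 0.929 CPM (SD, n = 4), a log2 fold change of 3.89 (adjusted p = 1.04e-06, SE 0.18), and 4.57 with library totals. In replicates 1 and 2 alone it was at 3.85, adjusted p = 6.11e-05, and in replicates 3 and 4 alone at 3.89, adjusted p = 0.00472. Macrophage markers, also higher in these libraries, had a median log2 fold change of 4.09, and their part in the rise of Rab3il1 was not tested. Rab3ip, or Rabin8, the related exchange factor for Rab8, measured 9.997, 7.83, 8.11 and 9.15 CPM in ICAM1high replicates 1 to 4 and 10.9, 17.1, 14.6 and 21.2 CPM in ICAM1low replicates 1 to 4, which put every ICAM1high library below every ICAM1low library. Its log2 fold change was -0.86 (adjusted p = 0.0115, SE 0.23), and -0.17, adjusted p = 0.527 with library totals. A long noncoding RNA on the other strand, 4933412E12Rik, overlaps Rab3ip with 26.0% as many counts. Rab3gap1 and Rab3gap2, the catalytic and the noncatalytic subunit of the complex that switches Rab3 off, were at 0.40 (adjusted p = 0.0962, SE 0.18) and -0.35 (adjusted p = 0.168, SE 0.19), the second at 0.35 with library totals. Without ICAM1high replicate 1, Rab3gap1 passed (0.47, adjusted p = 0.0417). Rab3gap2 overlaps Iars2 on the other strand, which held 42.0% as many counts. Of the 4 genes in this group, 1 was higher and 1 lower, where 22.6% of all genes were higher and 19.6% lower. The median log2 fold change of the group was 0.03, against 0.08 for all genes.

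Ratios of related genes within a library do not depend on how libraries are scaled. The log2 ratio of Rab3il1 to Rab3ip counts was 2.92 to 3.41 in ICAM1high and -2.21 to -0.69 in ICAM1low. Rab3il1 was thus the more counted of the 2 exchange factors in every ICAM1high library and the less counted one in every ICAM1low library, without correction for gene length. The log2 ratio of Rab7 to Rab7b was 3.72 to 5.75 in ICAM1high and 6.82 to 8.73 in ICAM1low, and that of Rab1a to Rab1b was 0.04 to 0.69 in ICAM1high and 0.78 to 1.33 in ICAM1low; neither overlapped between fractions. For Rab3gap1 to Rab3gap2 it was -0.82 to -0.52 in ICAM1high and -1.77 to -0.95 in ICAM1low, again without overlap. The ratios of Rab5a, Rab5b and Rab5c to one another, and those of Rab8a to Rab8b, Rab11a to Rab11b, Rab2a to Rab2b, Rab3a to Rab3d and Rab4a to Rab4b, overlapped between the fractions. These pairs were set by gene name after values had been seen, and the ratios were not tested.

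**Figure D3:**
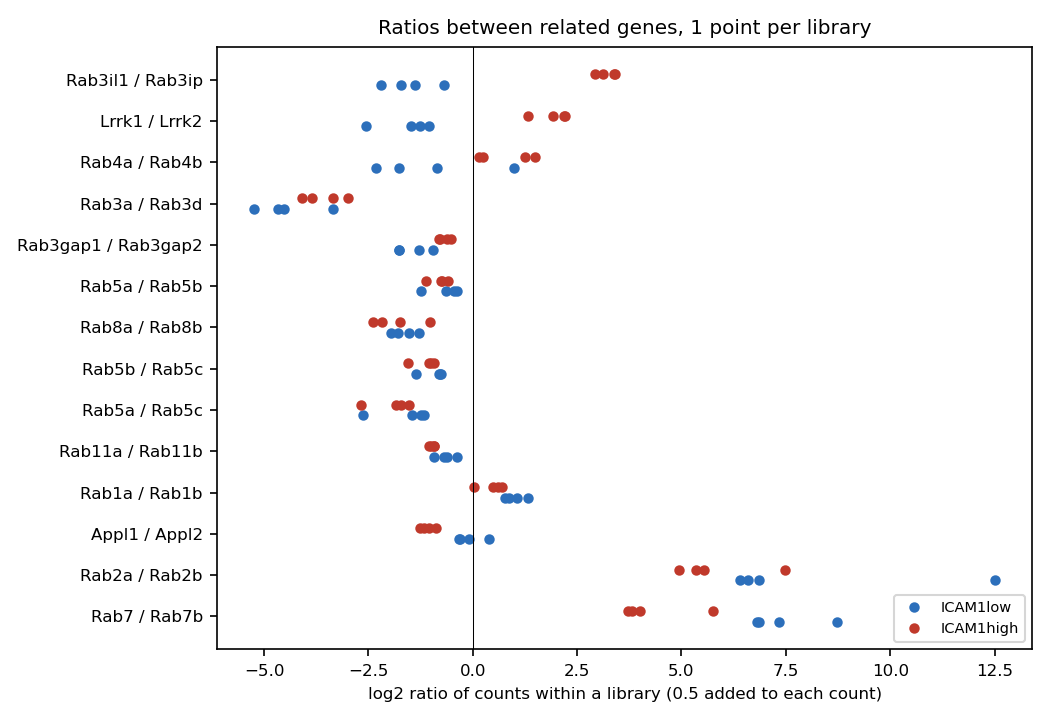
Log2 ratio of the counts of 2 related genes within each library (x axis, 0.5 added to each count), 1 point per library, for 12 pairs of members and 2 pairs of partner genes (y axis). Rab3il1 over Rab3ip and Lrrk1 over Lrrk2 are above 0 in every ICAM1high library and below 0 in every ICAM1low library; the point of Rab2a over Rab2b at the far right is ICAM1low replicate 4, where Rab2b had 0 counts.

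Rabs of regulated secretion were lower or did not pass. Rab44 (ENSMUSG00000064147, mm10 chromosome 17, 29114145 to 29148980), a large Rab with an added EF-hand and coiled-coil part that is found in myeloid cells and mast cells, measured 23.3, 42.1, 55.8 and 53.0 CPM in ICAM1high replicates 1 to 4 and 525, 316, 388 and 272 CPM in ICAM1low replicates 1 to 4. Every ICAM1low library held more than 4 times the level of the highest ICAM1high library. The mean was 43.5 ± 14.7 against 375 ± 110.4 CPM (SD, n = 4), and the log2 fold change, -3.11 (adjusted p = 4.64e-05, SE 0.31), was the most negative of all members, and -2.42 with library totals. Leaving out single libraries gave -3.28 to -2.90. Rab27a (ENSMUSG00000032202, mm10 chromosome 9, 73044854 to 73097629), which docks granules at the plasma membrane together with Munc13-4, measured 41.8, 47.9, 41.2 and 40.7 CPM in ICAM1high replicates 1 to 4 and 104, 113, 122 and 93.8 CPM in ICAM1low replicates 1 to 4. The ICAM1high values were close together and all lay below the lowest ICAM1low value. The log2 fold change was -1.34 (adjusted p = 7.4e-05, SE 0.14), and -0.65, adjusted p = 0.00873 with library totals. Neutrophil markers, lower in the same ICAM1high libraries, had a median log2 fold change of -2.55, and their part in the values of Rab44 and Rab27a was not tested. The paralogue of Rab27a, Rab27b, was almost absent, with 35 counts over the 8 libraries, and was not tested.

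Rab37, a Rab of mast cell granules, measured 3.66, 4.39, 4.20 and 3.51 CPM in ICAM1high replicates 1 to 4 and 6.02, 6.79, 6.33 and 6.18 CPM in ICAM1low replicates 1 to 4, without overlap. It had a log2 fold change of -0.68 (adjusted p = 0.0228, SE 0.21) and stood at 0.00 with library totals. It did not pass when any one of ICAM1high replicate 4 and ICAM1low replicate 2 was left out (adjusted p from 0.0534 to 0.0565). Rab37 also overlaps Cd300lf on the other strand, which had 211915 counts against the 727 of Rab37 and was itself at -1.45 (adjusted p = 8.67e-05); no source used here says whether counting took strand into account, so reads of the 2 genes cannot be told apart. Rab3d, a Rab of secretory granules in exocrine and mast cells, ranged over 12.4 to 20.1 CPM in ICAM1high and 10.2 to 22.2 CPM in ICAM1low and was at 0.13 (adjusted p = 0.718, SE 0.27). Rab3a, of synaptic vesicles, was at 0.88 (adjusted p = 0.219, SE 0.55), near the limit of detection and opposite Mpv17l2, and was at 1.56, adjusted p = 0.0403 without ICAM1low replicate 2; it passed the filter only through ICAM1high, the group where it was higher. Rab26, Rab3b and Rab3c were not tested, with 13, 9 and 0 counts in all. Of 9 secretory Rabs, 5 were tested; 3 were lower and 0 higher, where 19.6% of all genes were lower and 22.6% higher, with a median log2 fold change of -0.68. With library totals 2 were lower and 2 higher, against 5.97% and 48.5% of all genes. Summed over the 9 genes the level was 91.0 to 118 CPM in ICAM1high and 395 to 646 CPM in ICAM1low. Rab44 made up most of the sum in ICAM1low, at 272 to 525 CPM, but not in ICAM1high, at 23.3 to 55.8 CPM.

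**Figure D4:**
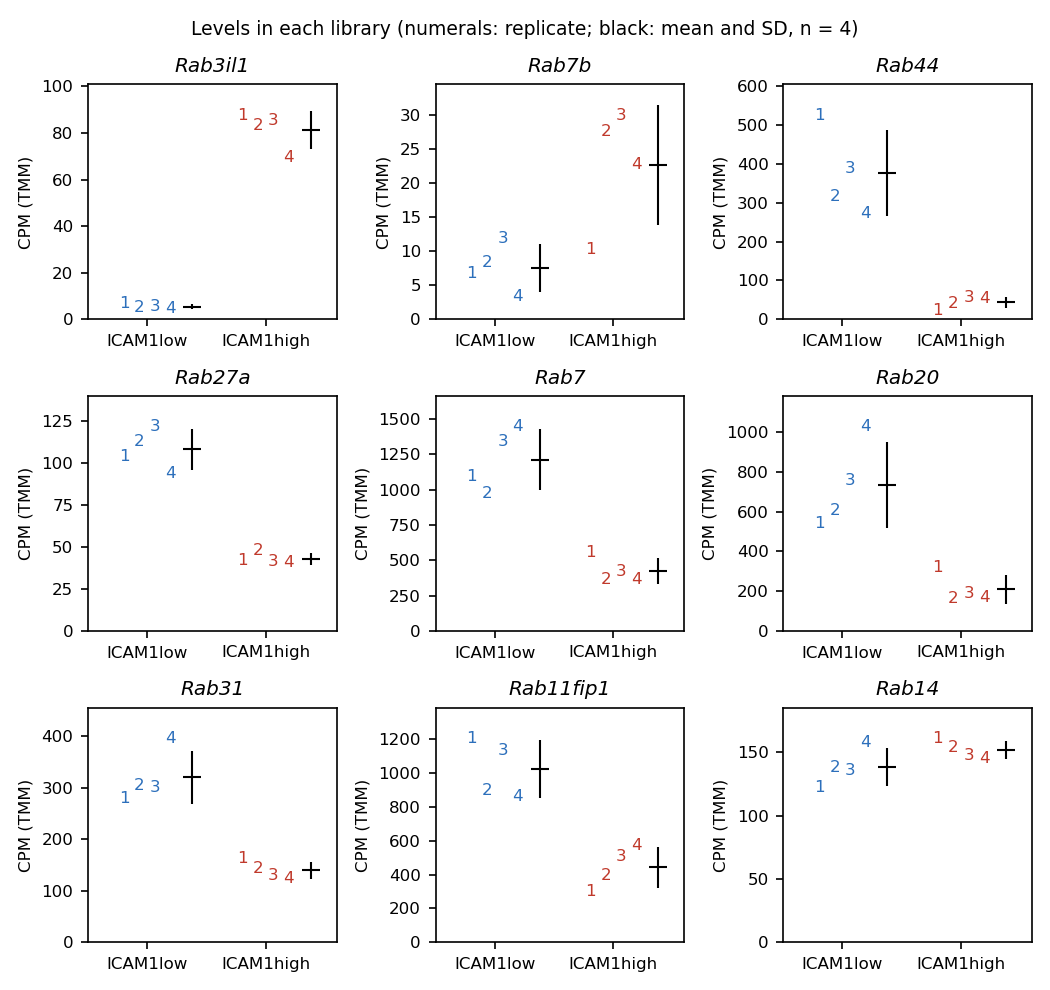
CPM (y axis, from 0) of 9 members in each ICAM1low and ICAM1high library, with numerals for the replicate and a black mark for the mean and SD (n = 4). Rab3il1 and Rab7b are higher in ICAM1high, Rab44, Rab27a, Rab7, Rab20, Rab31 and Rab11fip1 are lower, and Rab14 has a log2 fold change of 0.13 without passing; with library totals Rab11fip1 no longer passes and Rab14 is higher (0.82, adjusted p = 0.000646).

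Partners of Rab27 and Rab3 outside the family were mostly low in counts, and 7 of 16 listed genes were tested. Myo5a, the myosin motor that carries Rab27-bearing organelles, was higher at 85.7 ± 26.5 against 24.5 ± 5.09 CPM (SD, n = 4, log2 fold change 1.81, adjusted p = 0.000481, SE 0.26). Mlph, melanophilin, which links Rab27a to that motor, was lower at -1.26 (adjusted p = 0.0126, SE 0.34), and -0.59, adjusted p = 0.202 with library totals. The other 5 did not pass, among them Unc13d, which encodes Munc13-4, at -0.46 (adjusted p = 0.076, SE 0.19). In this list 1 gene was higher and 1 lower, against 22.6% and 19.6% of all genes, with a median of -0.46. With library totals 2 were higher and 0 lower, against 48.5% and 5.97% of all genes.

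Among late endosomal and lysosomal Rabs, 5 were lower and 3 higher, Rab39 included, of 10 tested, where 19.6% of all genes were lower and 22.6% higher. The stricter filter, which leaves out Rab39, gave 5 lower and 2 higher, against 23.8% and 26.2% of all genes. Rab7 (ENSMUSG00000079477, mm10 chromosome 6, 87999106 to 88045270), which governs fusion of late endosomes and phagosomes with lysosomes, measured 553, 363, 421 and 363 CPM in ICAM1high replicates 1 to 4 and 1093, 971, 1341 and 1446 CPM in ICAM1low replicates 1 to 4. The fractions did not overlap, and ICAM1high replicate 1 was the highest of its group. The log2 fold change was -1.51 (adjusted p = 0.00024, SE 0.20), and -0.82, adjusted p = 0.00137 with library totals. Rab20 (ENSMUSG00000031504, mm10 chromosome 8, 11453518 to 11478710), which acts in phagosome maturation and is a known hypoxia-induced gene, measured 319, 165, 186 and 168 CPM in ICAM1high replicates 1 to 4 and 538, 607, 759 and 1028 CPM in ICAM1low replicates 1 to 4. It was lower in every ICAM1high library, and ICAM1high replicate 1 and ICAM1low replicate 4 were the highest of their groups. Its log2 fold change was -1.81 (adjusted p = 0.000586, SE 0.27), with -1.11 under library totals and -1.90, adjusted p = 8.71e-06 without these 2 libraries.

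Rab9, which returns receptors from late endosomes to the Golgi, measured 31.4, 24.0, 22.5 and 25.4 CPM in ICAM1high replicates 1 to 4 and 34.7, 54.9, 55.2 and 71.5 CPM in ICAM1low replicates 1 to 4. No ICAM1high library reached the lowest ICAM1low library, and the log2 fold change was -1.07 (adjusted p = 0.00331, SE 0.22), or -0.37, adjusted p = 0.136 with library totals. Rab32, a Rab of phagosomes and lysosome-related organelles, ranged over 124 to 172 CPM in ICAM1high and 199.9 to 305 CPM in ICAM1low and was lower at -0.79 (adjusted p = 0.00517, SE 0.18), or -0.11, adjusted p = 0.592 with library totals. Rab24, of autophagy, was lower at -1.33 (adjusted p = 0.0361, SE 0.45), or -0.62, adjusted p = 0.206 with library totals, ranged over 13.2 to 33.8 CPM in ICAM1high and 23.6 to 94.6 CPM in ICAM1low and did not pass when any one of ICAM1high replicates 2, 3 and 4 and ICAM1low replicates 3 and 4 was left out (adjusted p from 0.0506 to 0.101); without ICAM1low replicate 4 its value was -0.75. Prelid1, on the other strand, had 51488 counts against the 4674 of Rab24 and was itself at -0.81 (adjusted p = 0.0546). As for Rab37, reads of these genes cannot be told apart, since the strand setting was not given.

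The members of this role that were higher were Rab12, Rab7b and Rab39. Rab12, which directs recycling receptors to lysosomes and takes part in autophagy, measured 16.1, 17.1, 18.3 and 17.0 CPM in ICAM1high replicates 1 to 4 and 8.73, 8.19, 10.6 and 7.99 CPM in ICAM1low replicates 1 to 4. The 2 fractions were tight and did not overlap, with a log2 fold change of 0.95 (adjusted p = 0.00174, SE 0.17). Rab7b, which despite its name works between endosomes and the Golgi, measured 10.2, 27.5, 29.9 and 22.6 CPM in ICAM1high replicates 1 to 4 and 6.75, 8.38, 11.8 and 3.37 CPM in ICAM1low replicates 1 to 4. The groups overlapped, since ICAM1high replicate 1 lay below ICAM1low replicate 3; the log2 fold change was 1.57 (adjusted p = 0.0106, SE 0.41). Rab39, a Rab of macrophage phagosomes, had 28, 29, 43 and 19 counts in ICAM1high and 4, 2, 0 and 0 counts in ICAM1low. It passed the low-count filter through the ICAM1high libraries alone, where it was high, and its fitted log2 fold change of 3.83 (adjusted p = 0.00484, SE 0.85) depends on the prior count. A processed pseudogene, Rps6-ps3, overlaps it with 27.2% as many counts. The part of the macrophage transcripts in the values of Rab7b and Rab39 was not tested either.

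Rab29, which recruits the kinase LRRK2, and Rab34, of phagosomes and cilia, did not pass, at 0.47 (adjusted p = 0.306, SE 0.35) and 0.00 (adjusted p = 0.999, SE 0.34). Within replicates 1 and 2 Rab29 was higher (1.39, adjusted p = 0.0305), and within replicates 3 and 4 it was at -0.37, adjusted p = 0.367. Rab34 was near 0 and turned negative under RLE and upper-quartile scaling, at -0.06 and -0.02. Rab38, Rab36, Rab42, Rab39b and Rab9b were not tested, with 45, 39, 9, 7 and 0 counts in all. Over the 10 tested of the 15 members of this role, the median log2 fold change was -0.40; with library totals 2 were lower and 4 higher, against 5.97% and 48.5% of all genes.

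Of 18 partners of Rab7, 5 were higher and 5 lower, which is near the 22.6% and 19.6% of all genes, with a median of 0.17. With library totals 12 were higher and 1 lower, against 48.5% and 5.97% of all genes. Rufy4, a Rab7 effector of autophagy, was lower at 31.7 ± 3.51 against 113 ± 9.14 CPM (SD, n = 4, log2 fold change -1.83, adjusted p = 1.24e-05, SE 0.15), and Tbc1d15, a GAP of Rab7, was lower at -1.15 (adjusted p = 0.000372, SE 0.16), or -0.47, adjusted p = 0.0581 with library totals. Vps41, a subunit of the HOPS complex that tethers vesicles to lysosomes, was higher at 34.8 ± 3.84 against 10.4 ± 0.766 CPM (log2 fold change 1.74, adjusted p = 2.62e-05, SE 0.16). The kinases that phosphorylate Rabs parted: Lrrk1 was higher at 29.0 ± 6.86 against 8.83 ± 3.83 CPM (log2 fold change 1.72, adjusted p = 0.00359, SE 0.36), and Lrrk2 was lower at 8.13 ± 3.69 against 24.0 ± 3.41 CPM (log2 fold change -1.57, adjusted p = 0.00253, SE 0.31). The log2 ratio of Lrrk1 to Lrrk2 counts was 1.33 to 2.21 in ICAM1high and -2.55 to -1.04 in ICAM1low. Hps1 and Hps4, the exchange complex of Rab32 and Rab38, were at 0.02 and -0.11 and did not pass.

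All 8 early endosomal members had negative log2 fold changes on the TMM scale, as did 6577 of the 14051 genes tested. With library totals Rab21, Rab5b, Rab5a, Rab5c and Rab22a turned positive. On the TMM scale 6 of the 8 members, Rab17 included, passed as lower, against 19.6% of all genes. With library totals 1 was lower and 1 higher, against 5.97% and 48.5% of all genes, and the median of the group went from -0.58 to 0.10. Rab31, also called Rab22b, which sorts cargo between Golgi and endosomes, measured 162, 144, 130.0 and 125 CPM in ICAM1high replicates 1 to 4 and 279, 304, 300.4 and 396 CPM in ICAM1low replicates 1 to 4. The fractions were well apart, and the log2 fold change was -1.19 (adjusted p = 0.000326, SE 0.16), or -0.50, adjusted p = 0.0148 with library totals, the only early endosomal member lower under both. Rab5if, named as a Rab5 interacting factor, measured 28.1, 21.4, 16.7 and 19.3 CPM in ICAM1high replicates 1 to 4 and 29.2, 43.1, 44.5 and 49.7 CPM in ICAM1low replicates 1 to 4 and had a log2 fold change of -0.96 (adjusted p = 0.00524, SE 0.22), or -0.28, adjusted p = 0.272 with library totals. Its groups did not overlap.

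Rab21, which takes up integrins, measured 114, 96.4, 98.4 and 96.1 CPM in ICAM1high replicates 1 to 4 and 133, 148, 158 and 172 CPM in ICAM1low replicates 1 to 4, a small difference without overlap. It was lower at -0.59 (adjusted p = 0.00709, SE 0.14) but stood at 0.09 with library totals. Rab5a, Rab5b and Rab5c share the role of fusing early endosomes. Rab5b measured 130.2, 127, 124 and 127 CPM in ICAM1high replicates 1 to 4 and 152, 176, 178 and 183 CPM in ICAM1low replicates 1 to 4, without overlap, and was lower at -0.44 (adjusted p = 0.0186, SE 0.13), with 0.25 under library totals. Rab5b did not pass when any one of ICAM1high replicates 2 and 3 was left out (adjusted p from 0.0514 to 0.0563). Rab5a was lower at -0.58 (adjusted p = 0.0337, SE 0.19), with 0.10 under library totals, and did not pass when any one of ICAM1high replicates 2 and 3 and ICAM1low replicates 1, 2 and 3 was left out (adjusted p from 0.0577 to 0.102). Rab5c was the most abundant of the 3 and did not pass, at -0.25 (adjusted p = 0.4, SE 0.22), with 0.45 under library totals. Rab22a held nearly the same level in all libraries, 41.8 to 44.4 CPM in ICAM1high and 41.8 to 47.8 CPM in ICAM1low, with a log2 fold change of -0.05 (adjusted p = 0.772, SE 0.13) that became 0.63, adjusted p = 0.0044 with library totals.

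Rab17, a Rab of polarised epithelial cells, had 11, 9, 9 and 0 counts in ICAM1high and 14, 28, 18 and 27 counts in ICAM1low. It passed the filter only through ICAM1low, where it was high, so a difference was favoured; its fitted value was -2.02 (adjusted p = 0.0337, SE 0.67), and it did not pass when any one of ICAM1high replicates 2 and 3 and ICAM1low replicate 2 was left out (adjusted p from 0.0685 to 0.0811). Rab25, another epithelial Rab, of the Rab11 branch, measured 9.13, 5.66, 4.83 and 3.66 CPM in ICAM1high replicates 1 to 4 and 9.17, 16.6, 17.3 and 22.6 CPM in ICAM1low replicates 1 to 4. The fractions did not overlap, and the log2 fold change was -1.49 (adjusted p = 0.00543, SE 0.34), or -0.80, adjusted p = 0.0485 with library totals. In the same libraries 7 epithelial and tumour markers, 1 of them under 1 CPM in every library, summed to 115 to 166 CPM in ICAM1high and 264 to 466 CPM in ICAM1low, with 3 lower and 0 higher of 6 tested; their part in the values of Rab17 and Rab25 was not tested.

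Of 15 partners of Rab5, 4 were higher and 2 lower, which is near the 22.6% and 19.6% of all genes, with a median of 0.15. With library totals 9 were higher and 1 lower, against 48.5% and 5.97% of all genes. Rabgef1, or Rabex-5, the main exchange factor of Rab5, was lower at 302 ± 26.4 against 912 ± 96.7 CPM (SD, n = 4, log2 fold change -1.59, adjusted p = 2.74e-05, SE 0.15; -0.91, adjusted p = 0.00079 with library totals), and Rin3 was lower at -0.77 (adjusted p = 0.00428, SE 0.17), or -0.09, adjusted p = 0.627 with library totals. Rin2, of the same family, was higher at 0.64 (adjusted p = 0.016, SE 0.18) and was named because of that value. Appl2, an effector on early signalling endosomes, was higher at 59.3 ± 10.3 against 20.1 ± 4.50 CPM (log2 fold change 1.56, adjusted p = 0.000259, SE 0.21).

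Recycling Rabs were lower or did not pass. Rab35, which returns cargo to the surface by a fast route, measured 84.8, 66.6, 62.7 and 65.8 CPM in ICAM1high replicates 1 to 4 and 86.3, 97.5, 108 and 128 CPM in ICAM1low replicates 1 to 4. It was lower without overlap at -0.59 (adjusted p = 0.0177, SE 0.17), stood at 0.11 with library totals, and did not pass when any one of ICAM1high replicates 2 and 3 was left out (adjusted p from 0.0566 to 0.0604). Rab11a, the Rab of the recycling endosome, measured 89.4, 54.0, 55.8 and 56.4 CPM in ICAM1high replicates 1 to 4 and 70.0, 101, 103 and 178 CPM in ICAM1low replicates 1 to 4, and the groups overlapped, with ICAM1high replicate 1 above ICAM1low replicate 1. It was lower at -0.82 (adjusted p = 0.0374, SE 0.28), or -0.12, adjusted p = 0.684 with library totals, and did not pass when any one of ICAM1high replicates 2, 3 and 4 and ICAM1low replicates 2, 3 and 4 was left out (adjusted p from 0.0588 to 0.104); without ICAM1low replicate 4 its value was -0.52. Rab15, which also acts on recycling endosomes, measured 4.32, 6.17, 4.83 and 2.59 CPM in ICAM1high replicates 1 to 4 and 10.1, 11.8, 10.9 and 4.24 CPM in ICAM1low replicates 1 to 4, and ICAM1low replicate 4 lay within the ICAM1high range. It was lower at -1.04 (adjusted p = 0.0373, SE 0.36), or -0.38, adjusted p = 0.43 with library totals, and did not pass when any one of ICAM1high replicates 1, 3 and 4 and ICAM1low replicates 1, 2 and 3 was left out (adjusted p from 0.0598 to 0.0995). Fntb, on the other strand of Rab15, held 54.9% as many counts.

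Rab11b was at -0.44 (adjusted p = 0.154, SE 0.24), with 0.25 under library totals, and was lower without ICAM1high replicate 1 (-0.72, adjusted p = 0.0172). Rab14, between Golgi and endosomes, held 145 to 161 CPM in ICAM1high and 122 to 158 CPM in ICAM1low and was at 0.13 (adjusted p = 0.457, SE 0.14). Rab4a and Rab4b, of fast recycling, were at 0.96 (adjusted p = 0.198, SE 0.57) and -0.51 (adjusted p = 0.414, SE 0.47). Rab4b stood at 0.16 with library totals, and Rab4a was at 1.68, adjusted p = 0.0197 without ICAM1low replicate 4. Rab4a reached the cutoff of the low-count filter in all 4 ICAM1high libraries but in only 3 ICAM1low libraries. Of the 8 members of this role, 4 were lower and 0 higher, against 19.6% and 22.6% of all genes, with a median of -0.55. With library totals the median became 0.13, and 1 was lower and 2 were higher, against 5.97% and 48.5% of all genes.

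The Rab11 interacting proteins, effectors that link Rab11 to motors and cargo, went in opposite directions. Rab11fip1, or Rab-coupling protein, which guides integrins and growth factor receptors through recycling endosomes, measured 298, 397, 509 and 572 CPM in ICAM1high replicates 1 to 4 and 1204, 896, 1132 and 858 CPM in ICAM1low replicates 1 to 4. The fractions did not overlap, and ICAM1high replicate 1 was the lowest library. Its log2 fold change was -1.20 (adjusted p = 0.00171, SE 0.22), or -0.51, adjusted p = 0.0837 with library totals. Rab11fip4, which also binds Arf GTPases, measured 12.2, 12.1, 13.7 and 13.4 CPM in ICAM1high replicates 1 to 4 and 36.0, 24.6, 21.5 and 20.0 CPM in ICAM1low replicates 1 to 4 and was lower without overlap at -0.99 (adjusted p = 0.00374, SE 0.21), or -0.32, adjusted p = 0.282 with library totals.

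Rab11fip5, or Rip11, of apical recycling, measured 68.5, 86.4, 85.6 and 84.0 CPM in ICAM1high replicates 1 to 4 and 45.0, 53.9, 53.0 and 41.6 CPM in ICAM1low replicates 1 to 4. It was higher in every ICAM1high library at 0.75 (adjusted p = 0.00306, SE 0.15). Rab11fip2, which joins Rab11 to myosin Vb, measured 7.12, 9.20, 10.6 and 12.2 CPM in ICAM1high replicates 1 to 4 and 6.31, 4.16, 5.18 and 3.43 CPM in ICAM1low replicates 1 to 4 and was higher without overlap at 1.03 (adjusted p = 0.0096, SE 0.26). Rab11fip3, of recycling during cell division, was at 0.28 (adjusted p = 0.531, SE 0.33). The 5 interactors thus held 2 higher and 2 lower members, where 22.6% of all genes were higher and 19.6% lower. The most counted of the 5, Rab11fip1, was among the lower. With library totals 3 were higher and 0 lower, against 48.5% and 5.97% of all genes.

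Rabs on the route from Golgi to surface included 2 lower members and 1 higher member of 4, where 19.6% of all genes were lower and 22.6% higher. Rab8a, the best known target of Rab3il1 and Rab3ip, measured 173, 124, 113 and 119 CPM in ICAM1high replicates 1 to 4 and 231, 269, 285 and 384 CPM in ICAM1low replicates 1 to 4. It was lower without overlap at -1.15 (adjusted p = 0.0014, SE 0.20), or -0.46, adjusted p = 0.0435 with library totals. Rab8b measured 354, 416, 512 and 620.0 CPM in ICAM1high replicates 1 to 4 and 896, 779.9, 989.5 and 936 CPM in ICAM1low replicates 1 to 4 and was lower without overlap at -0.92 (adjusted p = 0.00334, SE 0.19), or -0.23, adjusted p = 0.337 with library totals. Rab10, which brings vesicles to the plasma membrane, measured 85.4, 77.2, 79.4 and 70.8 CPM in ICAM1high replicates 1 to 4 and 47.8, 58.9, 60.6 and 56.8 CPM in ICAM1low replicates 1 to 4 and was higher without overlap at 0.48 (adjusted p = 0.0184, SE 0.14). Rab10 did not pass when any one of ICAM1high replicates 2 and 3 was left out (adjusted p from 0.0606 to 0.0649), and its antisense neighbour Rab10os, with 23.4% as many counts, was at -0.02. Rab13, of cell junctions, held 3.32 to 3.66 CPM in ICAM1high and 2.13 to 3.00 CPM in ICAM1low, separate in all libraries, but did not pass at 0.44 (adjusted p = 0.192, SE 0.25). With library totals 2 of the 4 were higher and 1 lower, against 48.5% and 5.97% of all genes.

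Among Rabs of the endoplasmic reticulum and Golgi, 4 were lower, 1 was higher and 5 did not pass, against 19.6% lower and 22.6% higher of all genes. Rab6a, of transport within and out of the Golgi, measured 115, 111, 117 and 124 CPM in ICAM1high replicates 1 to 4 and 173, 191, 238 and 213 CPM in ICAM1low replicates 1 to 4. It was lower without overlap at -0.80 (adjusted p = 0.00154, SE 0.14), or -0.11, adjusted p = 0.536 with library totals. Rab2a, of the same compartment, measured 115, 81.8, 76.1 and 73.1 CPM in ICAM1high replicates 1 to 4 and 108, 139, 144 and 182 CPM in ICAM1low replicates 1 to 4 and overlapped through ICAM1high replicate 1. It was lower at -0.73 (adjusted p = 0.0157, SE 0.20), or -0.04, adjusted p = 0.867 with library totals, and did not pass when any one of ICAM1high replicates 2 and 3 was left out (adjusted p from 0.0507 to 0.0533).

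Rab33b, which binds the autophagy protein Atg16l1, measured 21.9, 21.9, 17.4 and 20.6 CPM in ICAM1high replicates 1 to 4 and 23.8, 30.1, 27.7 and 31.0 CPM in ICAM1low replicates 1 to 4. It was lower at -0.46 (adjusted p = 0.0377, SE 0.16), stood at 0.22 with library totals, and did not pass when any one of ICAM1high replicates 2, 3 and 4 and ICAM1low replicates 2, 3 and 4 was left out (adjusted p from 0.0673 to 0.112). Rab1a, of transport from the endoplasmic reticulum to the Golgi, was lower at -0.41 (adjusted p = 0.0423, SE 0.15), stood at 0.28 with library totals and did not pass when any one of ICAM1high replicates 2, 3 and 4 and ICAM1low replicates 2 and 3 was left out (adjusted p from 0.0681 to 0.122). Rab18, found on lipid droplets and the endoplasmic reticulum, measured 52.2, 48.1, 42.8 and 37.4 CPM in ICAM1high replicates 1 to 4 and 23.3, 36.4, 31.6 and 34.6 CPM in ICAM1low replicates 1 to 4. It was higher without overlap at 0.52 (adjusted p = 0.0407, SE 0.18), and did not pass when any one of ICAM1high replicates 1, 2 and 3 and ICAM1low replicates 1 and 3 was left out (adjusted p from 0.0834 to 0.127). Rab1b, Rab2b, Rab19, Rab30 and Rab43 were at 0.16, 0.76, -0.15, -0.87 and 0.27 and did not pass, of which Rab19 stood at 0.52 with library totals. In ICAM1high, Rab2b and Rab19 reached the cutoff of the low-count filter in all 4 libraries, against 3 and 2 libraries in ICAM1low. Rab33a and Rab6b were not tested, with 62 and 16 counts. Rab2b overlaps Tox4 on the other strand, which held 11598 counts against 191 and was itself at -0.50 (adjusted p = 0.0157). With library totals 2 of this role were higher and 0 lower, against 48.5% and 5.97% of all genes.

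Rab23, a negative regulator of Hedgehog signalling at the cilium, measured 2.06, 2.30, 2.27 and 2.14 CPM in ICAM1high replicates 1 to 4 and 3.595, 5.32, 5.35 and 5.62 CPM in ICAM1low replicates 1 to 4. The ICAM1high values were tight and below all ICAM1low values, with a log2 fold change of -1.18 (adjusted p = 0.00432, SE 0.26), or -0.49, adjusted p = 0.153 with library totals. Rab28 and Rab40c, the second part of a ubiquitin ligase, were at 0.30 (adjusted p = 0.373, SE 0.26) and 0.46 (adjusted p = 0.216, SE 0.28), and Rab40c was higher without ICAM1low replicate 4 (0.76, adjusted p = 0.0225). Mettl26, on the other strand of Rab40c, held 26.0% as many counts. Rab40b was not tested, with 10 counts.

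Of 7 genes of the Rab cycle, which serve all Rabs, 3 were higher and 1 lower, against 22.6% and 19.6% of all genes. Negative log2 fold changes were seen for 4 of the 7, as for 6577 of the 14051 genes tested, and the median was -0.02. Gdi2, which extracts Rabs from membranes once they hold GDP, measured 277, 298, 272 and 244 CPM in ICAM1high replicates 1 to 4 and 117, 154, 143 and 154 CPM in ICAM1low replicates 1 to 4, without overlap, and was higher at 0.94 (adjusted p = 0.000687, SE 0.15). Rabggtb, the catalytic subunit that attaches prenyl groups to Rabs, was higher at 0.67 (adjusted p = 0.0113, SE 0.18). Chml, an escort protein that presents Rabs for prenylation, was higher at 1.63 (adjusted p = 0.0156, SE 0.46), or 2.28, adjusted p = 0.00257 with library totals. Chm, the paralogue of Chml, was lower without overlap at -0.68 (adjusted p = 0.027, SE 0.21) and stood at 0.01, adjusted p = 0.983 with library totals; it was named after its value was seen. With library totals 5 genes of the list were higher and 0 lower, against 48.5% and 5.97% of all genes.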

How the data were processed

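Messenger RNA was sequenced from 8 libraries of sorted tumour neutrophils, 4 ICAM1high and 4 ICAM1low. The authors deposited 1 table of raw read counts per gene, whole numbers without normalization, together with a gene length in bases, an other quantity used here for RPKM. HISAT2 and mm10 are named, per the submitters' processing notes; the counting tool, annotation release, strand setting, filters and versions were not given in the sources used here. All 69 members were in GENCODE M21, 66 of them at the same position. Library totals of 10328575 to 22751975 counts limit the precision for scarce transcripts, and chi-square per degree of freedom between replicates was 11.4 to 198.

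With R 4.3.3 and edgeR 4.0.16, filterByExpr by group left 14051 genes, TMM set the scaling, and the quasi-likelihood F test was applied, ICAM1high over ICAM1low, unpaired, with Benjamini-Hochberg adjustment over all genes tested and a threshold of 0.05. A standard error is the absolute fold change in log2 units over the root of F. The fit was tested on simulated data. Alternatives were DESeq2 1.42.0, limma-voom (limma 3.58.1), RLE, upper-quartile and total-count scaling, a fit without filter, one with at least 50 counts in 4 libraries, the replicate number as a block, robust dispersion, library-number runs (as a term, or each alone) and libraries left out.

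Members and lists were chosen with earlier results of these data known. Per-library values are given for Rab3il1 and, in each role, for up to 4 called members ranked by p; of each partner list up to 3 called genes with the smallest p and a mean log2 CPM from 1 upward were named, and other partners, as well as Rab7b, Rab17, Rab39 and related genes, were named after their values were seen. Of the Rab cycle list, 1 gene is not reported here and was left out of its counts.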

Additional observations from a re-analysis of the deposited data

Results flagged for a closer look

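Within groups of 4 libraries, 14 of 114 member values had 1 library whose gap to the nearest other passed Dixon's 95% limit as a share of the range, which chance gives in about 1 of 20 groups. ICAM1high replicate 1, which had more of its counts in short genes, was that library in 8 of them. In ICAM1high replicate 1, Rab21 was at 114 CPM against 96.1 to 98.4 CPM in the other libraries, Rab5c at 382 against 244 to 265, Rab20 at 319 against 165 to 186, Rab24 at 33.8 against 13.2 to 14.3, Rab29 at 20.7 against 9.99 to 11.0, Rab11fip5 at 68.5 against 84.0 to 86.4, Rab11a at 89.4 against 54.0 to 56.4 and Rab11b at 185 against 106 to 109. In ICAM1high replicate 2, Rab27a was at 47.9 CPM against 40.7 to 41.8 CPM in the other libraries and Rab13 at 3.32 against 3.62 to 3.66. In ICAM1low replicate 1, Rab23 was at 3.595 CPM against 5.32 to 5.62 CPM in the other libraries. In ICAM1high replicate 4, Rab17 was at 0 CPM against 0.383 to 0.453 CPM in the other libraries. In ICAM1low replicate 4, Rab2b was at 0 CPM against 1.21 to 1.41 CPM in the other libraries. In ICAM1low replicate 2, Rab3a was at 1.59 CPM against 0.367 to 0.562 CPM in the other libraries.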

How the results depend on the processing

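Scaling by library totals changed the most: 7 members were lower and 20 higher, over all genes 839 were lower and 6818 higher, and log2 fold changes turned sign for Rab21 0.09, Rab5b 0.25, Rab5a 0.10, Rab5c 0.45, Rab22a 0.63, Rab33b 0.22, Rab1a 0.28, Rab19 0.52, Rab37 0.00, Rab3gap2 0.35, Rab35 0.11, Rab11b 0.25 and Rab4b 0.16. Under DESeq2, limma-voom, RLE, upper-quartile scaling, robust dispersion, the strict filter and the run covariate the member counts stayed within 1.5 times. They were 23 to 28 lower and 7 to 8 higher, against 2475 to 3339 and 2759 to 3383 over all genes. Without any filter 23 members were lower and 7 higher of 67 tested, against 2558 and 3162 of 25567 genes. Rab34, at 0.00, turned to -0.06 in DESeq2 and with RLE scaling, -0.02 with upper-quartile scaling, 0.00 with the strict filter and the run covariate, and -0.14 without ICAM1high replicate 1 and ICAM1low replicate 4. With a replicate block 17 members were lower and 5 higher of 57, and over all 14051 genes 1975 were lower and 2263 higher. Correlations of same-numbered libraries after removal of group means were -0.57, 0.21, 0.18 and -0.30, and 3 of 8 libraries correlated best with their own number. The highest correlation, 0.53, was between ICAM1high replicate 1 and ICAM1low replicate 4, the 2 libraries that stood apart. These correlations cannot tell whether libraries of the same number shared a tumour. The labels state no pairing, so the numbers were not taken as one. In replicates 1 and 2 alone 8 members were lower and 2 higher (all genes: 1416 and 1708), and the sign turned for Rab5c 0.18, Rab30 1.05, Rab2b -0.17, Rab43 -0.18, Rab19 0.24, Rab34 -0.02, Rab11fip3 -0.28 and Rab11b 0.02. In replicates 3 and 4 alone 20 members were lower and 4 higher (all genes: 1604 and 1658), and the sign turned for Rab28 -0.02, Rab1b -0.19, Rab3d -0.30, Rab29 -0.37, Rab34 -0.03, Rab4b 0.36 and Rab14 -0.06. Leaving out 1 library gave 18 to 28 lower and 6 to 10 higher members (all genes: 2157 to 2927 and 2345 to 3403). Of the 36 called members, 13 lost the call in at least 1 of these fits and 0 turned direction. The uncalled Rab34 ranged from -0.16 to 0.39, Rab19 from -0.44 to 0.11, Rab3d from -0.01 to 0.38 and Rab1b from -0.02 to 0.22. Where a call was lost or a sign turned, the cause was not tested. The 12 members that were not tested were each under 1 CPM on average in both fractions, and the reason for their low counts was not tested.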

Other observations

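Rab rows that are not protein-coding were left out of the members. Rab7-ps1, a processed pseudogene of Rab7, was counted at 6.87 to 9.56 CPM in ICAM1high and 12.8 to 27.4 CPM in ICAM1low and was lower in ICAM1high, as Rab7 was (log2 fold change -1.39, adjusted p = 0.00143); reads of the 2 sequences may have been assigned to either. Rab11b-ps2 and the antisense Rab10os held 1699 and 2349 counts and did not pass, at -0.21 and -0.02.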
